A study of Neurospora crassa with 16 samples.

Results

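The genes described here are 5 enzyme genes of nitrogen assimilation in Neurospora crassa, a filamentous fungus, and 3 of their regulator genes, chosen by locus identifier: 8 of the 9730 genes in the RNA-seq count files. The enzyme genes are am (NCU01195), gln-1 (NCU06724), en(am)-2 (NCU01744), nit-3 (NCU05298) and nit-6 (NCU04720). The regulator genes are nit-2 (NCU09068), nit-4 (NCU08294) and nmr-1 (NCU04158, listed as nmr in the RefSeq gene table). All 8 identifiers were found in the count files, and all 8 had at least 10 reads in each library.

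The study followed the loss of LSD1, a histone demethylase, and of its 16 samples only the 2 polyadenylated RNA libraries have count files here. Both came from strain N5555 (mat a), which carries hph, a hygromycin resistance marker, in place of lsd1. The reference strain was wild-type N3752, of mating type A by the label of its chromatin sample, sequenced as 2 libraries of another series and known here only through group means in the authors' deposited tables of genes called lower or higher. The Δlsd1 cultures were grown from conidia, the asexual spores, for 16 h at 32 °C with shaking in Vogel's minimal medium with 1.5% sucrose, and mycelium was harvested. No label says that the replicates were separate cultures, so the spread between them may be technical, and a single strain stands for the deletion. The strains differ in mating type and their libraries in series, which cannot be told apart from the effect of the deletion.

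Neurospora takes up nitrate and reduces it to nitrite with nitrate reductase (nit-3) and then to ammonium with nitrite reductase (nit-6). Ammonium enters organic nitrogen through the NADP-dependent glutamate dehydrogenase (am) and through glutamine synthetase (gln-1), whose glutamine glutamate synthase (en(am)-2) turns into glutamate. NIT2, a GATA zinc finger factor, activates genes for poorer nitrogen sources when ammonium and glutamine are scarce, NIT4 adds the specific response to nitrate, and NMR binds NIT2 and holds it inactive. Vogel's medium supplies nitrogen as ammonium nitrate.

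Reads on genes numbered 7017726 in replicate 1 and 6797672 in replicate 2. The median absolute difference between the libraries was 0.21 on the log2 scale over the 7319 genes with at least 10 reads in each, and 2.58% of these genes differed at least 2-fold. The deleted gene lsd1 (NCU09120) had 41 and 65 reads, and the authors' deposited table gave it a mean of 88.7 in Δlsd1 and 675 in wild type (adjusted p = 7.06e-15). Reads thus remained on the deleted gene, and their source was not tested. All 6 genes fixed as hyphal and housekeeping markers were detected, from cot-1 at 54.4 to gpd-1 at 11166 CPM per kilobase, CPM being reads scaled to library size and the kilobases those of the annotated gene span. Of 7 conidial marker genes, con-13 was near 0 (1 and 0 reads), and the summed level of the list was 3712 CPM in replicate 1 and 3166 CPM in replicate 2. Within that list eas, the hydrophobin gene of the spore coat, stood at 1351 and 338 CPM, a difference reached by 0.150% of the 7319 genes. Also lower in replicate 2 were fl (97.9 and 65.8 CPM), con-10 (37.8 and 22.9 CPM) and con-6 (13.2 and 7.24 CPM). Higher in replicate 2 were con-8 (1477 and 1933 CPM) and csp-1 (735 and 798 CPM). In the authors' deposited tables con-10 was lower (log2 fold change -1.75) and con-6 higher (1.41, adjusted p = 0.162). The part of these markers in the results below was not tested.

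All 5 enzyme genes fell in Δlsd1, and none of the 3 regulator genes was called in either direction. The enzyme transcripts stood at 23.5% to 41.3% of their wild-type means in the authors' deposited table of lower genes. That table holds 7.76% of all counted genes, the table of higher genes 3.13%, and both together 10.9%. All 5 also had an adjusted p under 0.05, as did 6.57% of all counted genes in the lower direction, and 1 of them, am, fell at least 4-fold, as did 1.31%. The median log2 fold change of the 5 enzyme genes was -1.71, against -1.41 for all 755 genes called lower in the authors' deposited table. Decreases of am, gln-1 and nit-3 were deeper than that median of all lower genes, and those of nit-6 and en(am)-2 were shallower. With 10.9% of all counted genes in either table, 0 of 3 regulators is near the background and says nothing particular of them. In RNA from whole cultures, fewer cells that express a gene and less of its RNA per cell cannot be told apart. The genes were picked with earlier results of these data known, and no test was made over the list.

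**Figure D1:**
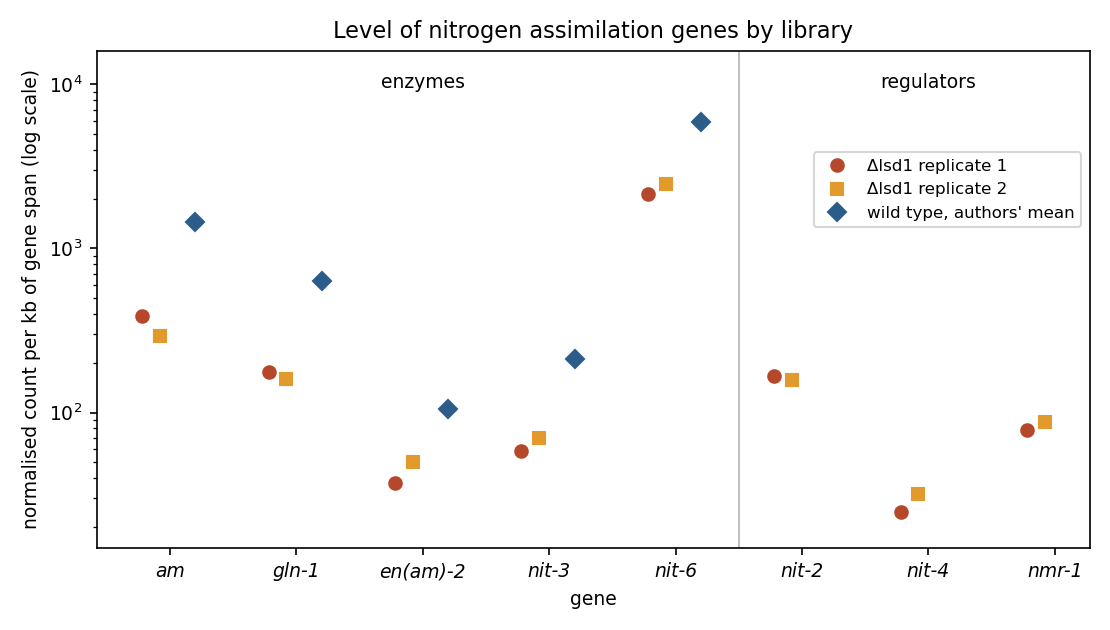
Normalised read count per kilobase of annotated gene span (log axis) for the 8 genes. Circles and squares are the Δlsd1 libraries and diamonds are the authors' wild-type means, which exist here for the enzyme genes alone. Each Δlsd1 point of an enzyme gene lies below the diamond of the same gene.

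The gene for glutamate dehydrogenase, am, showed the deepest decrease of the 5. Its normalised count, the read count plus 1 divided by the authors' size factor, was 869 in Δlsd1 replicate 1 and 655 in replicate 2, against a wild-type mean of 3243. Both Δlsd1 libraries lay far below the wild-type mean, and replicate 2 was the lower. The authors' deposited table gave a mean of 762 in Δlsd1, a 4.26-fold decrease (log2 fold change -2.09, adjusted p = 7.63e-27). This adjusted p was the 22nd smallest of the 755 lower genes, while by fold change am stood 112th.

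Glutamine synthetase gene gln-1 fell nearly as far. It had normalised counts of 638 and 576 in the Δlsd1 libraries, against a wild-type mean of 2277. The libraries were close to each other and both were far below wild type, with log2 ratios of -1.84 and -1.98. The deposited log2 fold change was -1.91 (adjusted p = 1.87e-21 in the authors' deposited table).

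By the deposited fold change, the glutamate synthase gene en(am)-2 had the smallest decrease, with normalised counts of 342 and 455 in Δlsd1 against 966 in wild type. Replicate 2, at 47.2% of the wild-type mean, came nearest to wild type of all 10 library values of the enzyme genes. The authors' deposited table gave a log2 fold change of -1.28 (adjusted p = 1.61e-08).

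Both genes of nitrate reduction fell. For nit-3, nitrate reductase, the normalised counts were 188 and 225 in Δlsd1, against a wild-type mean of 676. That is 27.7% and 33.3% of wild type, and the authors' deposited table gave a log2 fold change of -1.71 (adjusted p = 1.28e-07). For nit-6, nitrite reductase, they were 9248 and 10595 in Δlsd1, against 25164 in wild type. With a log2 fold change of -1.34 (adjusted p = 2.72e-13 in the authors' deposited table), nit-6 ended at 39.4% of wild type. As with each of the other enzyme genes, the 2 Δlsd1 libraries of nit-6 lay closer to each other than either lay to the wild-type mean.

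In each library taken alone, all 5 enzyme genes lay at least 2-fold below the wild-type mean, as did 558 of the 755 lower genes (73.9%). The log2 ratios of single libraries ran from -2.31 (am, replicate 2) to -1.08 (en(am)-2, replicate 2). The difference in log2 fold change between am and en(am)-2 was -0.81 by the deposited values, -0.40 with replicate 1 alone and -1.22 with replicate 2 alone. Between gln-1 and nit-3 the order turned with the library, with a difference of 0.01 in replicate 1 and -0.40 in replicate 2. It turned between en(am)-2 and nit-6 as well, with a difference of -0.05 in replicate 1 and 0.16 in replicate 2. The 3 genes with the deeper decreases, am, gln-1 and nit-3, lay below nit-6 and en(am)-2 in both libraries. These differences carry no test, because the wild-type libraries enter as means.

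**Figure D2:**
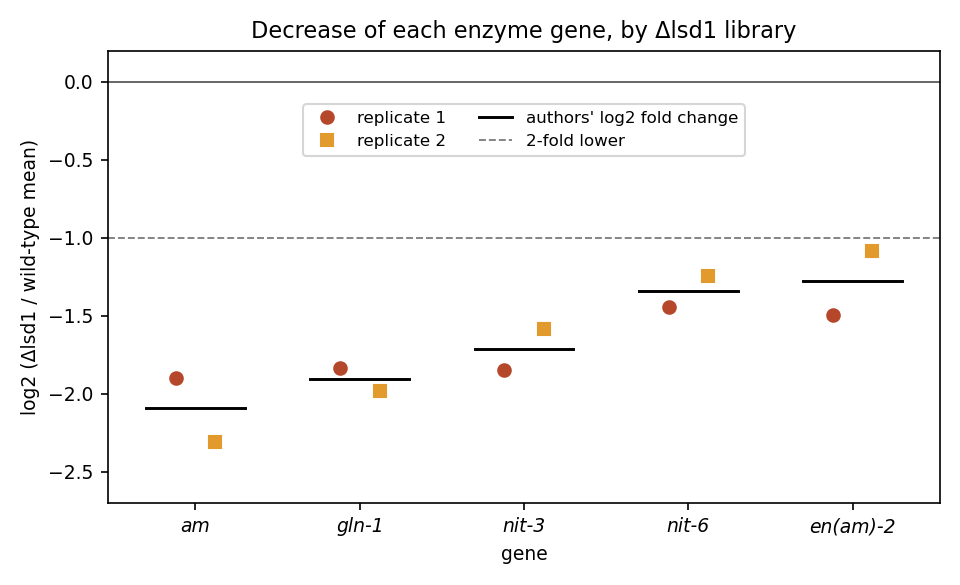
Log2 ratio of each Δlsd1 library to the authors' wild-type mean for the 5 enzyme genes, ordered by the authors' log2 fold change (black lines). All points lie below the dashed line that marks a 2-fold decrease, from -2.31 for am to -1.08 for en(am)-2.

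**Figure D3:**
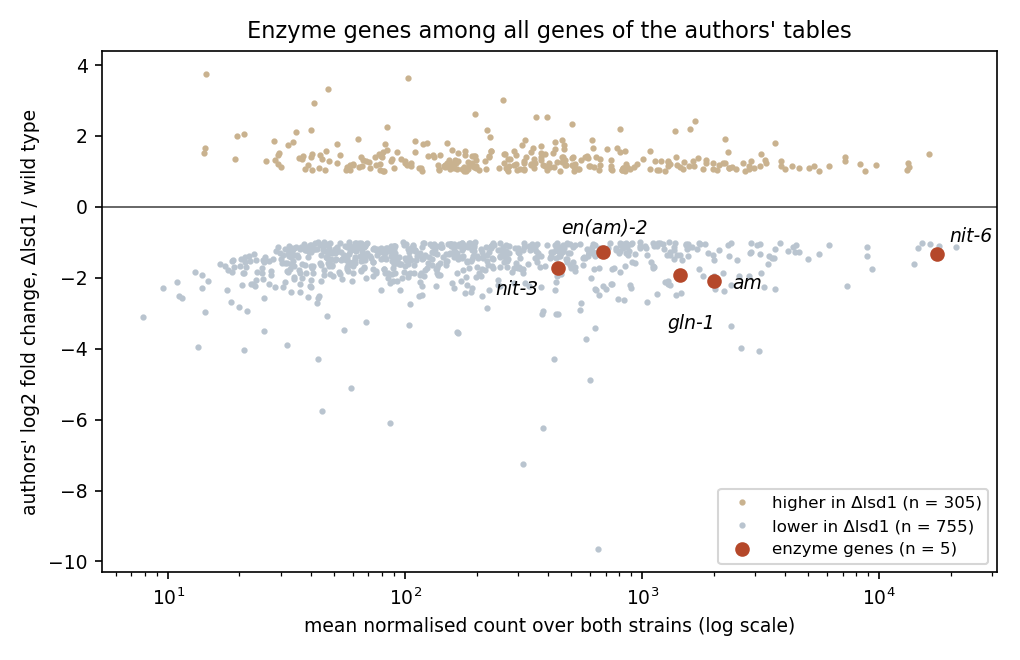
Authors' log2 fold change (Δlsd1 over wild type) against the mean normalised count over both strains (log axis) for the 305 higher and 755 lower genes of the deposited tables. The 5 enzyme genes lie between -2.09 and -1.28, within the range of the other lower genes, and nit-6 lies at the high end of the level axis.

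Of the regulators, nit-2, the general activator, had the most reads in Δlsd1. Its libraries had 543 and 470 reads, or 73.2 ± 3.20 CPM (SD, n = 2). Its antagonist nmr-1 had 159 and 165 reads, 23.5 ± 1.98 CPM (SD, n = 2). The nitrate-specific activator nit-4 had the fewest, with 69 and 82 reads, 10.98 ± 1.97 CPM (SD, n = 2). Each regulator's libraries lay within 0.37 of each other on the log2 scale, and the 95% counting interval of that difference held 0 for all 3 (exact binomial, covering counting error only).

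All genes in the deposited tables changed 2-fold or more, at an unadjusted p up to 0.0497. By these limits, a missing gene is taken to have changed under 2-fold or to have an unadjusted p over about 0.05. Which of these held for the regulators, or whether another filter removed them, is not known here. Among all counted genes within 1.5-fold of the Δlsd1 level of each, 9.36% (nit-2), 10.6% (nmr-1) and 14.3% (nit-4) were in either table. Because no wild-type level of the regulators was used here, the change of the enzymes was not tested against that of the regulators.

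**Figure D4:**
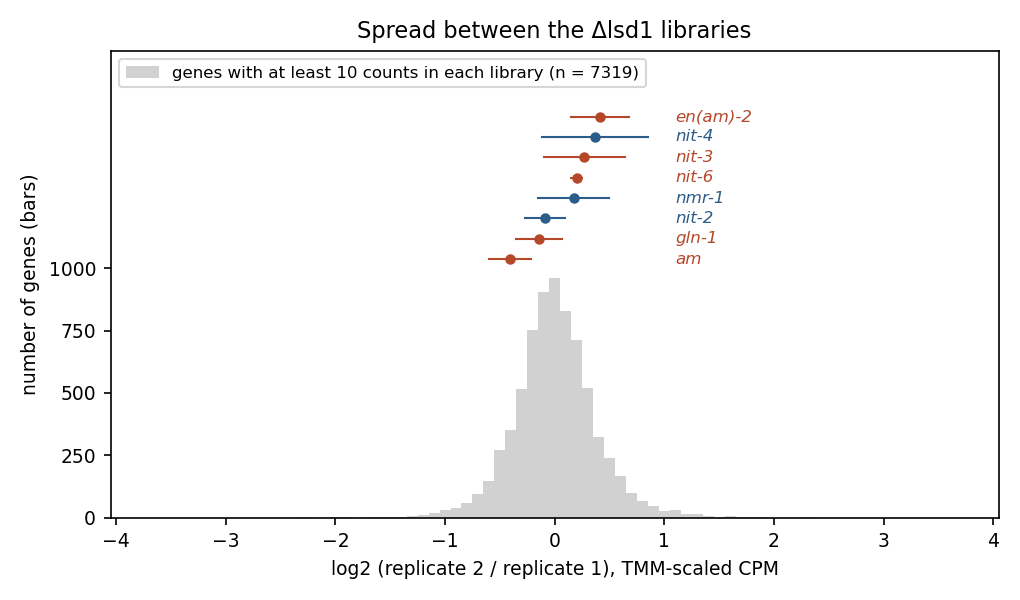
Log2 ratio of replicate 2 to replicate 1 in TMM-scaled CPM. Bars count the 7319 genes with at least 10 reads in each library, and points with lines give the 8 genes (enzymes red, regulators blue, named at the right) with 95% counting intervals, at heights without meaning. All 8 points lie between -0.40 and 0.42, within the bulk of the bars.

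Between the Δlsd1 libraries the enzyme genes did not shift in one direction. On the log2 scale of CPM, replicate 2 minus replicate 1, am stood at -0.40 (95% counting interval -0.60 to -0.21) and en(am)-2 at 0.42 (0.15 to 0.68). The intervals of nit-6 (0.20, from 0.15 to 0.25) also left out 0, while those of gln-1 (-0.14) and nit-3 (0.27) held it. Differences as large as those of am and en(am)-2 were found in 23.4% and 22.4% of the 7319 genes. These include genes with few reads, where counting error is larger, and genes of like depth were not compared.

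The levels of the 8 genes per length spread over 82.6-fold in Δlsd1. In CPM per kilobase of annotated gene span, introns included, nit-6 averaged 206, am 30.3, gln-1 14.9, nit-2 14.4, nmr-1 7.31, nit-3 5.68, en(am)-2 3.87 and nit-4 2.49. The libraries of gln-1 (15.7 and 14.2) and nit-2 (14.9 and 14.0) overlapped, and every other pair in this order was apart in both libraries. The gene of the second step of nitrate reduction, nit-6, was thus 36.3 times as abundant per length as that of the first, nit-3.

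Per length, the order of the enzyme genes was the same in both strains: nit-6, am, gln-1, nit-3, en(am)-2. For the ratios, the gene named earlier in the order am, gln-1, en(am)-2, nit-3, nit-6 was put on top. Of the 10 ratios between pairs of enzyme genes, both Δlsd1 libraries lay below the ratio of the wild-type means in 7 and above it in 1. In 2 the libraries lay on either side of it. Swapping the genes of a pair swaps below and above, so 7 against 1 shows no common direction. Per kilobase, the level of am over that of en(am)-2 was 10.4 and 5.88 in the Δlsd1 libraries, against 13.7 in wild type. That of am over gln-1 was closer between the strains, at 2.20 and 1.84 in Δlsd1 and 2.30 in wild type. The ratio above wild type was that of en(am)-2 to nit-3, at 0.641 and 0.710 in Δlsd1, against 0.502 in wild type. The wild-type value lay between the libraries for gln-1 over nit-3 (3.03 and 2.27 in Δlsd1, 3.00 in wild type) and for en(am)-2 over nit-6 (0.0174 and 0.0202 in Δlsd1, 0.0180 in wild type). These ratios restate the decreases per gene and carry no test.

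Further lists held nitrogen genes and other regulators, some of which act outside nitrogen use. Of 49 symbols in 6 such lists, 18 matched a counted gene, and of these 2 were called lower and 0 higher in the authors' deposited tables. Over all counted genes 7.76% were lower and 10.9% in either table, so this count is near the background and shows nothing about these genes as a group. The lower genes were pmb, a basic amino acid permease, and aln-1, allantoinase of purine breakdown. For pmb the deposited means were 59.1 in Δlsd1 and 222 in wild type (log2 fold change -1.91, adjusted p = 4.81e-08 in the authors' deposited table). For aln-1 they were 95.9 in Δlsd1 and 785 in wild type (log2 fold change -3.03, adjusted p = 1.06e-17 in the authors' deposited table).

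The matched genes of nitrate uptake and of other ammonium assimilation, nit-10, gln-2 and gdh-1, were in neither table, as were all but 10.9% of counted genes. The nitrate transporter gene nit-10 (NCU07205) had 329 and 217 reads, or 15.5 and 11.1 CPM per kilobase, 3.01 and 1.79 times the level of nit-3. A second glutamine synthetase gene, gln-2 (NCU04856), had 7542 and 6789 reads and was 23.7 and 25.6 times as abundant per length as gln-1. The gene of the NAD-dependent glutamate dehydrogenase, gdh-1 (NCU00461), which works in glutamate breakdown, had 1990 and 2680 reads and stood at 1.50 and 2.90 times the level of am per length. Replicates differed by -0.48 for nit-10 and 0.55 for gdh-1 on the log2 scale, differences reached by 17.3% and 12.8% of genes.

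The 9 listed regulators outside the 3 were in neither table, as were all but 10.9% of counted genes. They were the 5 other GATA factor genes found, wc-1 and wc-2 of the blue light response, sre of iron uptake, and sub-1 and asd-4 of sexual development, at 3.64 to 32.0 CPM per kilobase. They also included cpc-1, activator of amino acid synthesis, at 440 ± 32.2 CPM (SD, n = 2), cpc-2, a ribosome-associated protein gene, at 1187 ± 88.2 CPM (SD, n = 2), cpc-3, a kinase gene of the same response, and pco-1, activator of purine use. Among uptake and purine genes, mtr, a neutral amino acid permease, xdh-1, xanthine dehydrogenase, and pmg, a general amino acid permease, were in neither table. The symbol un-3 matched the tRNA synthetase gene cyt-20, also in neither, which takes up no amino acid.

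**Figure D5:**
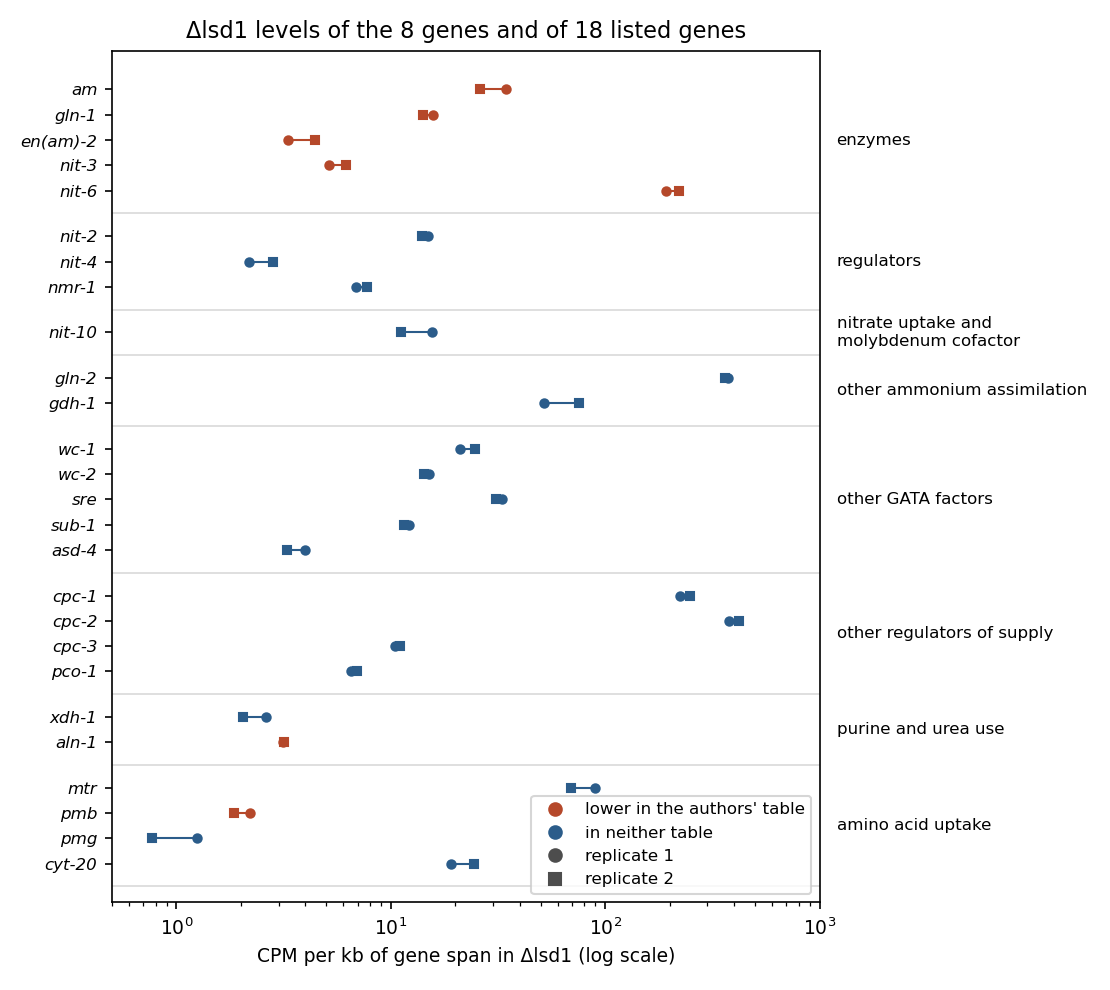
Level in the Δlsd1 libraries (CPM per kilobase of gene span, log axis; circles replicate 1, squares replicate 2) of the 8 genes and of 18 listed genes, not all of them nitrogen genes, grouped by list. Red marks the 5 enzyme genes, aln-1 and pmb, lower in the authors' deposited table; blue genes were in neither table. The gene cyt-20 entered its list through its older symbol un-3.

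By likeness of change, measured as the Euclidean distance over the 2 log2 ratios of single Δlsd1 libraries to the wild-type mean, the nearest of 861 other tabled genes were mostly genes without a symbol. Nearest to am were NCU01070 (distance 0.18) and NCU10009 (0.20), and nearest to gln-1 were pmb (0.067) and NCU01417 (0.083). For en(am)-2 they were NCU01382 (0.011) and NCU00270 (0.041), for nit-3 NCU03342 (0.037) and NCU01772 (0.039), and for nit-6 NCU05837 (0.0089) and NCU06081 (0.026). No enzyme gene was among the 2 nearest of another. With 861 genes compared for 2 places, this does not show whether the enzyme genes changed alike.

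The 8 genes lie apart on 5 chromosomes of assembly NC12, none near another. The enzyme genes are am on chromosome V (3200862 to 3203095), gln-1 on V (4393869 to 4397472), en(am)-2 on II (2567182 to 2576313), nit-3 on IV (5420216 to 5423422) and nit-6 on VI (534862 to 539145). The regulators are nit-2 on I (741884 to 746951), nit-4 on IV (2507739 to 2512139) and nmr-1 on V (5027349 to 5030561). None overlaps another annotated gene. Of the 16 annotated neighbours 12 were counted and 1 was called, NCU09069 beside nit-2, lower with means of 144 in Δlsd1 and 397 in wild type (log2 fold change -1.47, adjusted p = 1.29e-07 in the authors' deposited table). NCU09069 starts 807 bp from the end of nit-2. Counted neighbours of the 5 enzyme genes were all in neither table, but neither neighbour of am was counted. The only counted neighbour of gln-1, NCU06725, had 1 read in each library. With 7.76% of all counted genes lower, 1 of 12 neighbours is near the background.

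One enzyme gene overlapped a region of the study's deposited list of 250 genomic regions. Overlaps and distances here rest on supercontigs taken as chromosomes by number, 1 of 2 assignments that hold all regions. The region on chromosome II from 2573288 to 2579882 covered 3026 bp of en(am)-2, 33.1% of its span. It ran on for 3569 bp past the gene, ending 747 bp before NCU01742. In all, 236 of 9729 placed genes (2.43%) overlapped a region, and 34 of these 236 (14.4%) were called lower and 9 higher in the authors' deposited tables, against 7.76% lower and 3.13% higher over all counted genes, a difference that was not tested. The sources used here do not say how the regions were called, and their part in the change of en(am)-2 was not tested. Those 34 genes include en(am)-2, and 22 of them had a larger deposited decrease than en(am)-2. The other 7 genes lay 15.0 kb (nit-6) to 328 kb (nit-2) from the nearest region, against a median of 65.5 kb for all placed genes. In between were nit-4 (18.3 kb), nit-3 (26.7 kb), gln-1 (31.0 kb), nmr-1 (39.4 kb) and am (223 kb). The share of placed genes at least as near was 17.1% for nit-6, 90.6% for am and 97.1% for nit-2. Whether distance to a region goes with the decrease was not tested.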

How the data were processed

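RNA-seq read counts of 2 Δlsd1 libraries were used as the authors deposited them, raw and per gene. The rows naming no gene, 16.1% and 16.2% of counted reads, stayed out. Per the submitters' processing notes, Bowtie2, DESeq2 and deepTools were used; their versions, the counter, its strand setting and the build are not stated. The other 14 samples were not analysed here.

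Per the file headers, columns of both deposited gene tables hold group means of normalised counts (a signal), the ratio of these means, the log2 of that ratio, and p-values before and after adjustment. The headers are those of the older DESeq package, so the program is uncertain. The Δlsd1 column was settled from the values: the means of all 1060 genes were recovered within 1e-09 as the mean of (count + 1) / size factor, with factors of 0.640 and 0.591. The code of this recovery was also run on simulated means made with the same formula. Recovery there holds by construction, so it checks the code and not the choice of column. Tabled genes changed 2-fold or more, at an unadjusted p up to 0.0497. Regions are deposited start and end positions (unit other), given here 1-based; supercontigs were taken as chromosomes by number, 1 of 2 assignments of 5040 that hold all regions.

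No count model across strains was fitted, since wild-type counts were not used here. CPM used edgeR 4.0.16 TMM scaling (R 4.3.3) from genes holding 10 or more reads in both libraries, with DESeq2 1.42.0 size factors as an alternative; Python 3.11.15 did the rest. Gene spans and symbols came from RefSeq's NC12 table, which gives no strand. Named genes are the 8 members, lists by symbol, chromosome neighbours, lsd1 and the 2 tabled genes nearest in change (overall mean of at least 50). Members and lists were chosen with earlier results of these data known. A search for motifs in promoters was planned and not run, because no promoter sequences were used here. Precision rests on 2 libraries, of 7017726 and 6797672 reads, and counting intervals are exact binomial at 95%.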

Additional observations from a re-analysis of the deposited data

How the results depend on the processing

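All 32 alternative values of level and of difference between libraries (DESeq2 size factors, total counts, no filter before TMM) moved by less than the spread between replicates or the counting interval. Leaving out a replicate gave log2 fold changes from -2.31 to -1.90 for am, -1.98 to -1.84 for gln-1, -1.50 to -1.08 for en(am)-2, -1.85 to -1.59 for nit-3 and -1.44 to -1.25 for nit-6. Adding nothing to the counts lowered them by at most 0.011, and TMM scaling of both libraries moved them by at most 0.00023. Both settings act on the Δlsd1 libraries alone, because the wild-type means are fixed. Scaling between the strains was not varied, so these small shifts say nothing about it. With an adjusted p under 0.05 the enzyme count was still 5, at a background of 6.57% of all counted genes, with 0 regulators. With at least a 4-fold change it was 1, am, and over all genes 127 lower and 18 higher were left, since that rule keeps fewer genes by construction. Among genes holding 10 or more reads in both libraries the background was 8.57% lower and 4.15% higher. No paired analysis was possible because the wild-type libraries entered only as means. Levels by coding length and distances from the gene start were not run, for want of coding lengths and strand. Depth limits nit-4 most, at 69 and 82 reads.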
